A study of Mus musculus with 6 samples.

Results

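The gene segments of the immunoglobulin light chains were measured by RNA sequencing in AML blasts of 6 mice, 3 with TET2 and 3 without it. The segments were chosen by annotation and by reads, as genes of the GENCODE M21 annotation of the V, J or C biotype of immunoglobulins. Their symbols begin with Igk on chromosome 6 or with Igl on chromosome 16, and they had at least 10 estimated reads summed over the 6 libraries. The authors had quantified transcripts of Ensembl 94. Of 118 annotated light chain segments 97 passed, among 53458 genes with a transcript in the files. They were 85 of 100 V kappa, 4 of 5 J kappa and the single C kappa segment, and 3 of 3 V lambda, 1 of 5 J lambda and 3 of 4 C lambda segments. The minimum was set on the total over both genotypes, so a segment could pass through either genotype: 77 segments had at least 10 reads in each, 16 only in the mice with TET2, 3 only in the mice without it, and 1 reached the minimum only over both. All 97 also passed the filter of the test across genes.

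Both groups were leukemias that carried the p30 allele of Cebpa, which leaves only the short form of C/EBP-alpha, beside a deleted allele. The group Cebpa-/p30 Tet2+/+ was mice 19, 23 and 24, and the group Cebpa-/p30 Tet2-/- was mice 5, 7 and 8, each with 1 library. Donor bone marrow of C57BL/6J mice (C57BL/6 in the labels), with Cebpa fl/p30, Mx1-Cre and either Tet2 +/+ or Tet2 fl/fl, had been transplanted into lethally irradiated C57BL/6J.SJL recipients, and the floxed alleles were deleted with poly(I:C). Mx1-Cre is driven by an interferon-responsive promoter that acts in hematopoietic stem cells, so lymphoid cells that descend from them can carry the deletions too. Bone marrow of moribund mice was frozen, and live donor-derived cells negative for CD3, B220 and Ter119 were sorted. Most B cells carry B220 and leave with that gate, while plasma cells carry little of it. The libraries held 13036643 to 32855343 estimated reads, of which light chain segments took 2733 to 22187. Reads summed over all Tet2 transcripts were 73.6, 79.5 and 98.4 counts per 1000000 reads (CPM, scaled by edgeR's TMM factors) in the Tet2+/+ group and 111.4, 79.4 and 96.7 CPM in the Tet2-/- group. This sum also counts reads outside the floxed part, so it does not check the genotypes, which are given as labelled. Of 8 genes of myeloid blasts, which summed to 6940 to 8745 CPM with TET2 and 6368 to 8866 CPM without it, none passed an adjusted p of 0.05 in edgeR or DESeq2, and none was at 0. Mpo, the granule peroxidase of early myeloid cells, had 4527, 4110 and 4230 CPM with TET2 and 3394, 3091 and 2662 CPM without it (log2 fold change -0.49, edgeR adjusted p = 0.664). Cd34, a surface protein of stem and progenitor cells, had 170, 310.0 and 193 CPM against 90.03, 32.2 and 131.5 CPM (log2 fold change -1.41, edgeR adjusted p = 0.582). It was the 1 gene of the 8 at an unadjusted p under 0.05 in edgeR, beside 5.12% of all genes tested as lower. Mpo and Cd34 were lower without overlap, as the light chain sums were, beside 7.94% of all genes tested. Their part in the result was not tested. Of the 8 genes 4 had a log2 fold change below 0, beside 49.9% of all genes tested. Itgam, an integrin of myeloid cells, had 1538, 765 and 1098 CPM with TET2 and 1229, 3134 and 1381 CPM without it.

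A light chain pairs with a heavy chain to form an antibody or a B cell receptor. In each B cell lineage cell a V segment is cut and joined to a J segment by the RAG recombinase, and splicing then joins the J segment to the constant region, so that a mature transcript holds 1 V, 1 J and 1 C. The kappa locus rearranges first, with many V segments and a single constant region, and the lambda locus of the mouse is small and used by few cells. Plasma cells make immunoglobulin transcripts in very large amounts. In bulk RNA, fewer cells of a type and less RNA per cell cannot be told apart.

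Light chain RNA was lower in the blasts without TET2, in kappa and in lambda, and in V, J and constant segments alike. The kappa segments summed to 699.9, 1133 and 961.2 CPM in Tet2+/+ mice 19, 23 and 24, and to 302.3, 175 and 135 CPM in Tet2-/- mice 5, 7 and 8, which is 4.56-fold lower in the mean. The lambda segments summed to 62.3, 54.6 and 61.1 CPM with TET2 and to 14.6, 26.9 and 13.4 CPM without it, 3.25-fold lower. No mouse without TET2 reached the lowest mouse with TET2 in either sum. Light chain reads were 0.0759, 0.131 and 0.111% of all reads in the mice with TET2, and 0.0305, 0.0175 and 0.0148% in those without it. These sums run over segments chosen with results in view and carry no test.

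The single kappa constant segment, Igkc (ENSMUSG00000076609, chr6:70726435-70726966, plus strand), encodes the constant domain of every kappa chain and was the most abundant light chain segment. It stood at 381, 633 and 542 CPM in mice 19, 23 and 24, and at 180, 96.6 and 74.5 CPM in mice 5, 7 and 8. The groups did not overlap, and mouse 5, the highest without TET2, stayed below mouse 19, the lowest with it. The log2 fold change was -2.15 (SE 0.38, n = 3 against 3), with an adjusted p of 0.186 in edgeR's quasi-likelihood test over 22170 genes, which does not pass 0.05. DESeq2 on the same counts gave an adjusted p of 1.775e-05. The exact permutation p (two-sided) of its 6 values was 0.1, the smallest that 3 against 3 allows.

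The lambda constant segments are separate genes, each behind its own J segment. Iglc1 (chr16:19061618-19062071, minus strand) had 18.4, 13.9 and 21.4 CPM with TET2 and 3.73, 6.11 and 4.07 CPM without it, without overlap (log2 fold change -1.95, SE 0.30, edgeR adjusted p = 0.151). Iglc3 (chr16:19065230-19065681, minus strand) had 5.32, 3.21 and 4.29 CPM against 1.99, 0.32 and 0.87 CPM, also without overlap (log2 fold change -1.97, edgeR adjusted p = 0.544, -2.83 without mouse 5). Iglc2 (chr16:19198396-19200351, minus strand) overlapped between genotypes. It had 11.7, 15.2 and 6.90 CPM with TET2 and 3.86, 7.72 and 1.95 CPM without it, since mouse 7 stood above mouse 24 (log2 fold change -1.33, edgeR adjusted p = 0.604, exact permutation p = 0.2, log2 fold change -1.94 without mouse 7). Per kilobase of transcript the mean level of Igkc was 974.7 CPM with TET2 and 219.8 CPM without it, against 39.4 and 10.2 for Iglc1, 18.6 and 7.44 for Iglc2 and 9.41 and 2.35 for Iglc3.

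The coding sequences of the lambda constant regions show how far reads can be told apart. Over 312 aligned bases Iglc2 and Iglc3 differed at 11 positions (96.5% identity), and over the 90 bases shown at 5, while Iglc1 and Iglc2 differed at 19 of these 90. In the following stretches (GRCm38, minus strand, from GENCODE M21 transcripts) capitals mark the 21 positions at which the 3 segments are not all the same, which are the bases that assign a read to its gene.
Iglc1 (chr16:19061980-19062069): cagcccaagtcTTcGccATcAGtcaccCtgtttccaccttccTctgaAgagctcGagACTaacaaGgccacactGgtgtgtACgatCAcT
Iglc2 (chr16:19198761-19198850): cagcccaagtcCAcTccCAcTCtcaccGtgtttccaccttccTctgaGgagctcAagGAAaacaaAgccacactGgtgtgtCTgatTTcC
Iglc3 (chr16:19065590-19065679): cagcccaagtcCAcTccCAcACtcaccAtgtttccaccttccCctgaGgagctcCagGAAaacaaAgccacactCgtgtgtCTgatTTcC
Reads shared by Iglc2 and Iglc3 were divided by Salmon's estimation, so the split between these 2 is less certain than their sum. The transcript of Iglc2 also holds all 38 bases of Iglj2, and Iglj2 itself was listed with 0 reads.

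The joining segments lie between the V segments and the constant region, and each is a stretch of 38 to 43 bases that ends up inside the mature transcript. The letters TTCGG, searched on the coding strand, open the conserved phenylalanine and glycine codons of the joint and are in capitals in the segments shown that hold them (GRCm38, from GENCODE M21 transcripts). They were found in 4 of 5 annotated J kappa and 4 of 5 annotated J lambda segments, 80% of the 10.
Igkj1 (chr6:70722562-70722599, plus): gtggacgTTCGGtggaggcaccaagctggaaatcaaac
Igkj2 (chr6:70722916-70722958, plus): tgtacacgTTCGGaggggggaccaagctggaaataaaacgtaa
Igkj3 (chr6:70723223-70723260, plus): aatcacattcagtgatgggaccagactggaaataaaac
Igkj4 (chr6:70723548-70723585, plus): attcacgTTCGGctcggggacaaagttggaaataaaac
Igkj5 (chr6:70723886-70723927, plus): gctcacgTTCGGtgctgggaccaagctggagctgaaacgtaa
Iglj1 (chr16:19063225-19063262, minus): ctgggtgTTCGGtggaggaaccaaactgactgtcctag
Igkj3, known as the non-functional J kappa segment of the mouse, does not hold these letters. It had 8 reads over the 6 libraries and missed the minimum, while the other 4 had 256 to 448.

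All 4 J kappa segments in the comparison were lower without TET2 and did not overlap between genotypes, beside 7.94% of all genes tested. Igkj2 had 3.77, 11.8 and 6.41 CPM with TET2 and 1.36, 0.84 and 0.92 CPM without it, and its log2 fold change of -2.80 (SE 0.52) was the most negative of the 4. Igkj1 had 3.05, 5.30 and 5.77 CPM against 1.26, 1.16 and 0.81 CPM (log2 fold change -2.12). Igkj5 had 5.32, 4.28 and 3.66 CPM against 1.30, 0.71 and 0.65 CPM (log2 fold change -2.30). Igkj4, with the highest value without TET2 closest to the lowest with it, had 2.27, 2.94 and 5.07 CPM against 1.93, 1.22 and 0.60 CPM (log2 fold change -1.44). Their edgeR adjusted p-values were 0.209 to 0.604, so none passed, while DESeq2 called 3 of the 4, beside 1.47% of genes called lower. Iglj1 had 13, 10 and 8 reads with TET2 and 3, 6 and 4 reads without it, too few to say more than that the groups did not overlap.

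The use of J kappa segments overlapped between genotypes. Of J kappa reads Igkj2 took 26.1, 48.6 and 30.6% with TET2 and 23.2, 21.3 and 30.9% without it. Igkj4 took 15.8, 12.1 and 24.2% with TET2 and 32.97, 31.1 and 20% without it. Igkj5 led in mouse 19 with 36.9%, and Igkj4 led in mice 5 and 7, but none of the 4 shares separated the genotypes.

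**Figure D1:**
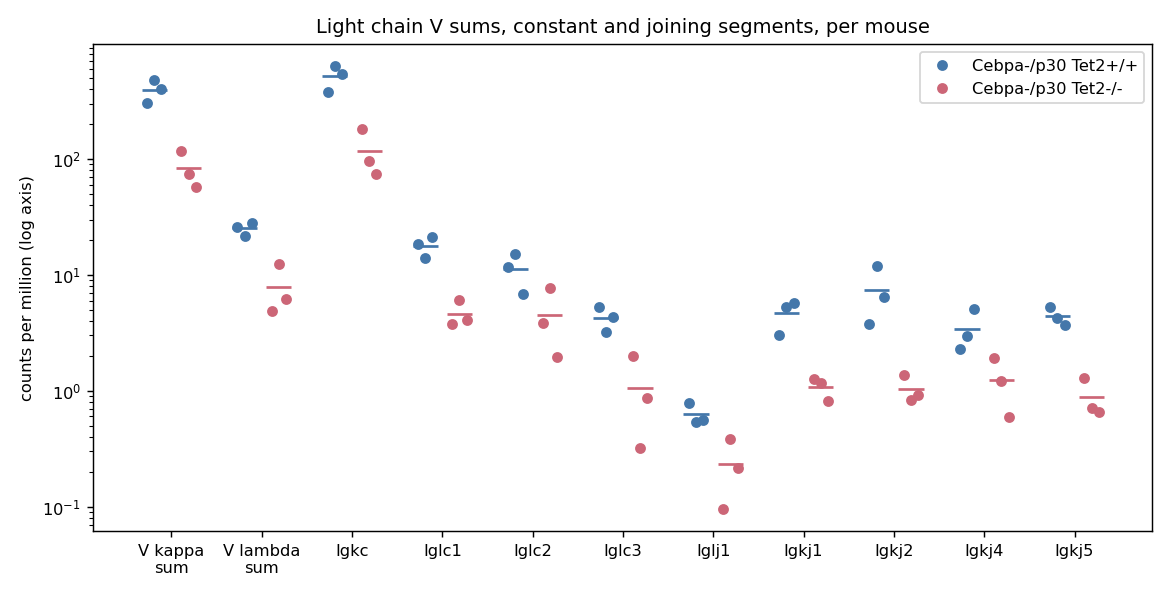
CPM (log axis) of the summed V kappa and V lambda segments and of each constant and joining segment. Points are single mice, horizontal lines are group means of 3, and blue and red mark the genotypes. Igkc lies between 381 and 633 CPM with TET2 and between 74.5 and 180 CPM without it, and of the quantities shown only Iglc2 overlaps between genotypes.

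The test across all genes placed many light chain segments lower at an unadjusted p and none past the adjusted threshold. None of the 97 segments passed an adjusted p of 0.05 in edgeR, where 0.0451% of the 22170 genes tested passed as lower and 0% as higher. At an unadjusted p under 0.05, 52 segments were lower and 0 higher, which is 53.6% of the segments beside 5.12% of all genes tested as lower and 3.0% as higher. In 48 segments every mouse without TET2 was below every mouse with it, and in 0 the reverse held, beside 7.94% and 6.41% of all genes tested. The log2 fold change was below 0 in 86 segments, where 49.9% of all genes tested lay below 0. The median log2 fold change was -2.63 over the segments and 0.0016 over all genes tested. Over the 77 segments with at least 10 reads in each genotype the median was -2.28, with 42 lower at an unadjusted p under 0.05 and 44 without overlap. DESeq2 on the same counts called 31 segments lower and 0 higher at an adjusted p of 0.05, beside 1.47% of genes called lower and 0.266% higher. On length-scaled counts it called 32 lower and 0 higher, beside 1.44% and 0.287% of genes. The segments share cells and transcripts, so these counts describe the locus and are not independent events.

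**Figure D2:**
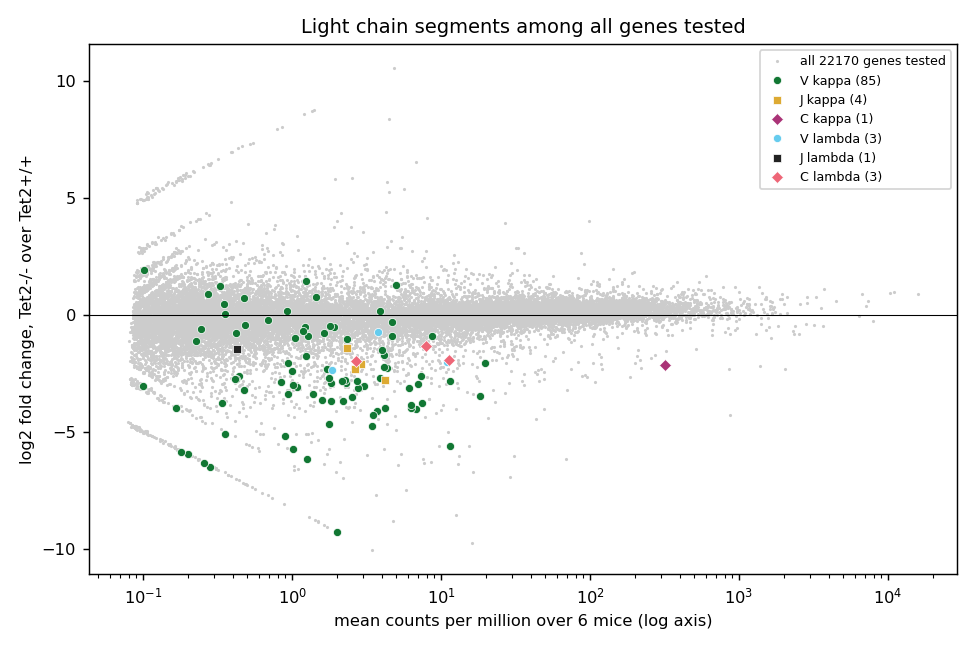
Log2 fold change (Tet2-/- over Tet2+/+, edgeR) against the mean CPM over 6 mice (log axis), for all 22170 genes tested in grey and the 97 light chain segments in colour by locus and kind. Igkc is the rightmost segment at -2.15, and 86 of the 97 segments lie below the line at 0.

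The kappa and lambda segments were both lower, and their proportion overlapped between genotypes. Of the 90 kappa segments 47 were lower at an unadjusted p under 0.05 (median log2 fold change -2.73), and of the 7 lambda segments 5 were (median -1.95), beside 5.12% of all genes tested. In 12 kappa and 0 lambda segments every mouse without TET2 had 3 reads or fewer. The 2 medians therefore do not compare the loci on equal terms. Kappa made up 91.8, 95.4 and 94.02% of light chain reads with TET2 and 95.4, 86.7 and 91% without it. Mouse 7 had the lowest kappa share and mouse 5 the same share as mouse 23, so the groups overlapped. The mean difference was -2.72 percentage points, with an SD of 1.80 with TET2 and 4.36 without it. It was -0.55 points without mouse 7 and -4.91 points without mouse 5.

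The proportion of V to constant reads overlapped between genotypes as well. V segments took 43.5, 42.0 and 41.5% of kappa reads with TET2 and 38.6, 42.6 and 42.6% without it, and J segments took 1.94 to 2.24% in all 6 mice. Per base of transcript, V kappa reads were 1.06 to 1.151 times the Igkc reads with TET2 and 0.939 to 1.11 times without it. In the lambda locus V segments took 42.0, 39.9 and 45.7% of reads with TET2 and 33.6, 45.9 and 46.8% without it. Mouse 5 had the lowest V share at both loci.

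The V kappa segments, which encode the part of the chain that binds antigen, ranged from 0.1004 to 19.8 CPM in their mean over 6 mice, with a median of 1.63. Of the 85 V kappa segments 42 were lower at an unadjusted p under 0.05 and 38 did not overlap, beside 5.12% and 7.94% of all genes tested, with a median log2 fold change of -2.80. Igkv14-111 (chr6:68256389-68256869, plus strand) had the highest mean CPM, among transcripts of similar length, with 42.4, 15.2 and 38.5 CPM with TET2 and 8.45, 8.49 and 6.08 CPM without it (log2 fold change -2.06, SE 0.41, edgeR adjusted p = 0.249). It was the only V kappa segment among the 10 most used in every mouse.

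Igkv5-39 (chr6:69900424-69900977, minus strand), named because it had the lowest adjusted p of the segments, had 9.63, 13.97 and 8.94 CPM with TET2 and 1.36, 0.90 and 1.46 CPM without it. Its log2 fold change was -3.12 (SE 0.36), its edgeR adjusted p was 0.0675, and its DESeq2 adjusted p was 4.216e-14. Igkv6-15 (8.02, 10.9 and 18.3 CPM against 1.77, 2.12 and 0.92 CPM) and Igkv10-96 (8.26, 15.2 and 14.2 CPM against 1.14, 2.96 and 2.01 CPM) had the same form, without overlap, with edgeR adjusted p-values of 0.157 and 0.167.

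Other abundant V kappa segments were lower in every mouse without TET2 and varied between mice of 1 group. Igkv1-110 had 21.8, 60.7 and 17.5 CPM against 5.41, 2.19 and 1.36 CPM (log2 fold change -3.46, -2.72 without mouse 23 and -4.23 without mouse 5). Igkv3-4 had 16.3, 25.9 and 18.3 CPM against 1.39, 6.49 and 0.71 CPM (log2 fold change -2.84), and without mouse 7, the highest without TET2, its log2 fold change was -4.23. Igkv12-46 had 2.93, 15.1 and 23.4 CPM against 0.76, 1.35 and 0.92 CPM (log2 fold change -3.78, -3.16 without mouse 24). These 3 did not overlap, and their edgeR adjusted p-values were 0.255 to 0.456.

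Igkv5-43 and Igkv6-17 were listed at 0 in mouse 7. Igkv5-43 had 21.5, 7.55 and 9.43 CPM with TET2 and 1.01, 0 and 1.25 CPM without it, and Igkv6-17 had 3.53, 4.87 and 27.2 CPM against 0.57, 0 and 1.63 CPM. Igkv1-117 overlapped between genotypes, with mouse 5 near mouse 24, and had 6.94, 17.3 and 9.86 CPM with TET2 and 9.84, 4.37 and 3.85 CPM without it (log2 fold change -0.91, edgeR adjusted p = 0.681, log2 fold change -1.47 without mouse 5 and -0.50 without mouse 23).

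The ends of the V segments show the joint and the likeness within families. The last 60 coding bases are given for the most abundant segment, for 2 pairs of near copies, for the segment of lowest p and for the 2 that single mice carried (GRCm38, from GENCODE M21 transcripts). Capitals mark the codon of the conserved cysteine before the joint, taken as the last 3 letters of the last match to TANTNNTGN on the coding strand, which 97 of 100 V kappa and 2 of 3 V lambda segments hold in this window.
Igkv14-111 (chr6:68256810-68256869, plus): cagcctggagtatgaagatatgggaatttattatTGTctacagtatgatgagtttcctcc
Igkv1-110 (chr6:68271208-68271267, plus): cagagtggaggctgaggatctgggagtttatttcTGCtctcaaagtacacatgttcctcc
Igkv1-117 (chr6:68121768-68121827, plus): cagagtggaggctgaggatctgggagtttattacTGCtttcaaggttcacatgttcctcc
Igkv6-25 (chr6:70215898-70215957, plus): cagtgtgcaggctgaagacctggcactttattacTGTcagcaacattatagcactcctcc
Igkv6-17 (chr6:70371934-70371993, plus): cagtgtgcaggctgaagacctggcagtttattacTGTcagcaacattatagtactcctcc
Igkv5-39 (chr6:69900424-69900483, minus): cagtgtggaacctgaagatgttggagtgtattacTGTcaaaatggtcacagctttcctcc
Igkv8-18 (chr6:70356386-70356445, plus): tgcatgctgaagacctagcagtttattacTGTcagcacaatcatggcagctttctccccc
Igkv17-127 (chr6:67861600-67861659, plus): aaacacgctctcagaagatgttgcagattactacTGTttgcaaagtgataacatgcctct

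Near copies limit how well single V segments can be told apart. A transcript of another gene at 95% identity or more over at least 50% of the length was found for 48 of the 97 segments, 44 of them V kappa. Igkv1-110 and Igkv1-117 were 97.5% identical over 401 bases, and Igkv6-25 and Igkv6-17 95.5% over 377. Of the 49 segments without a near copy 25 were lower at an unadjusted p under 0.05 (median log2 fold change -2.28), and of the 48 with a near copy 27 were (median -2.88), beside 5.12% of all genes tested. The overlapping non-coding gene Gm30211, which spans the J and C kappa region on the same strand, had 4.002 to 18.01 reads in each library, against 1373 to 11817 for Igkc.

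Single mice carried many of the V kappa segments. In 38 of the 97 segments at least 50% of the summed CPM came from 1 library, 14 of them from mouse 23. Igkv6-25 had 64.8 CPM in mouse 23 and 0.06, 2.39, 1.20, 0 and 0 CPM in mice 19, 24, 5, 7 and 8, so that 94.7% of its summed level lay in 1 library. Without mouse 23 its log2 fold change was -1.50 in place of -5.59. Igkv8-18 had 221 of its reads in mouse 23, 4 in mouse 19 and 0 in the others. Igkv1-99 and Igkv4-63 were also highest in mouse 23, at 6.00 and 4.34 CPM, with at most 1.41 CPM in any other mouse. These 3 were named as the most negative among V segments with a mean of at least 1 CPM. Every mouse without TET2 had 3 reads or fewer of each, so they passed the minimum only through the mice with TET2, and the size of their difference follows from how they were chosen. Igkv8-18 also overlapped between genotypes, since mouse 24 had none of its reads.

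A positive log2 fold change was found in 11 segments, all V kappa, of which 6 were highest in mouse 5, 3 in mouse 7 and 1 each in mice 8 and 19. The 3 most positive at a mean of at least 1 CPM were highest in mouse 5. Igkv17-127 had 1.20, 4.44 and 3.03 CPM with TET2 and 19.7, 0.19 and 1.19 CPM without it, and mouse 5 held 66.1% of its summed level. Igkv12-89 had 0.96, 0.43 and 0.63 CPM against 4.59, 0 and 0.87 CPM, and Igkv8-28 had 0.24, 1.12 and 1.90 CPM against 4.30, 0.84 and 0.27 CPM. Their log2 fold changes of 1.29, 1.46 and 0.76 had edgeR adjusted p-values of 0.848, 0.816 and 0.890, and without mouse 5 they were -2.05, -0.61 and -0.98. Mouse 5 was above all mice with TET2 in 11 of the 97 segments, mouse 7 in 4 and mouse 8 in 1, while they were below all mice with TET2 in 58, 67 and 65.

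Each mouse had its own order of V kappa segments. Igkv14-111 led in mice 19, 24, 7 and 8, with 13.9, 9.64, 11.4 and 10.6% of V kappa reads. Igkv6-25 led in mouse 23 with 13.6%, just ahead of Igkv1-110 with 12.8%, and Igkv17-127 led in mouse 5 with 16.9%. In mouse 7 Igkv3-5 came next with 11.1%. Of the 34 segments that were among the 10 most used in some mouse, 21 were so in 1 mouse only.

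**Figure D3:**
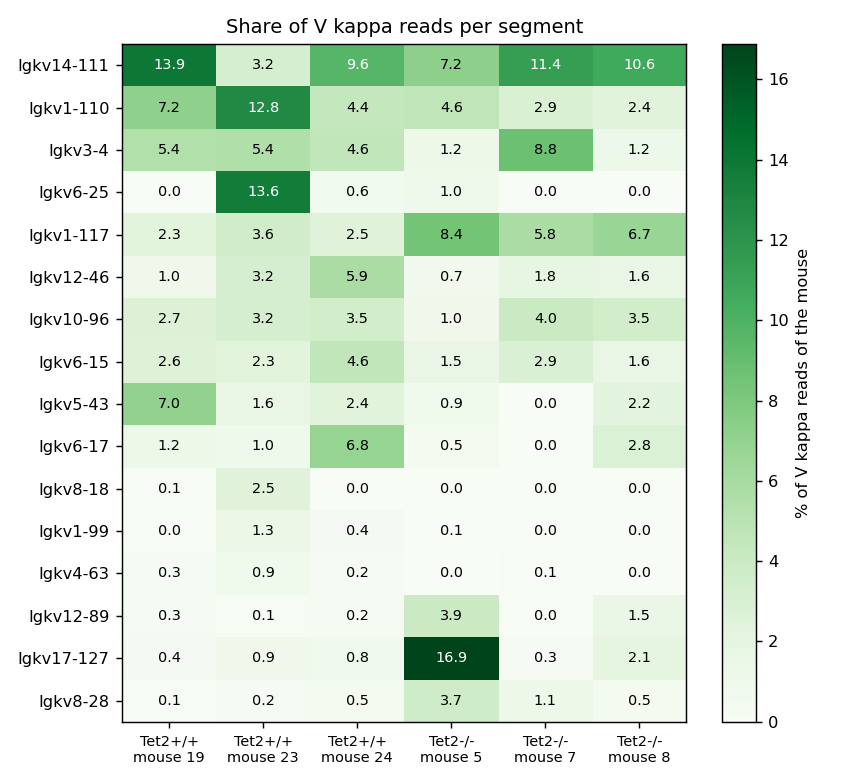
Share of each mouse's V kappa reads (percent, colour and printed values) for the V kappa segments named in the text by rule, in rows, and the 6 mice, in columns. Igkv14-111 is used in every mouse, while Igkv6-25 (13.6% in mouse 23) and Igkv17-127 (16.9% in mouse 5) stand out in single mice.

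The spread of reads over V kappa segments did not separate the genotypes, although fewer of the chosen segments were seen without TET2. All 3 mice with TET2 had a read in 77 of the 85 segments, and mice 5, 7 and 8 in 70, 41 and 58. Part of this follows from how the segments were chosen. Of all 97 light chain segments, 16 reached 10 reads only in the mice with TET2 and 3 only in those without it. The effective number of segments, the inverse of the summed squared shares, was 21.1, 20.2 and 28.5 with TET2 and 17.3, 16.3 and 28.7 without it. The 10 most used segments held 55.2, 52.9 and 49.03% of V kappa reads with TET2 and 61.4, 69.8 and 44.5% without it. V kappa reads numbered 1059 in the smallest library. With all libraries thinned to that number, 70, 75 and 66 segments had a read with TET2 and 64, 40 and 58 without it, and the gap between groups in the effective number stayed within the spread. The thinning kept the same 85 segments, so it does not remove the part that follows from their choice.

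Segments with lower levels lay along the whole kappa locus. V kappa segments lie up to 3167 kb upstream of Igkj1, in both orientations, and join by deletion or by inversion accordingly. The 28 segments nearest to Igkj1 (18.98 to 759 kb) had a median log2 fold change of -2.49, the next 28 (779 to 1812 kb) of -2.89, and the farthest 29 (1860 to 3167 kb) of -2.62. The farthest segments held 45.9, 38.6 and 38.0% of V kappa reads with TET2 and 54.6, 39.2 and 53.1% without it, with overlap. Segments on the plus strand held 46.6 to 58.4% with TET2 and 48.1 to 59.4% without it.

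**Figure D4:**
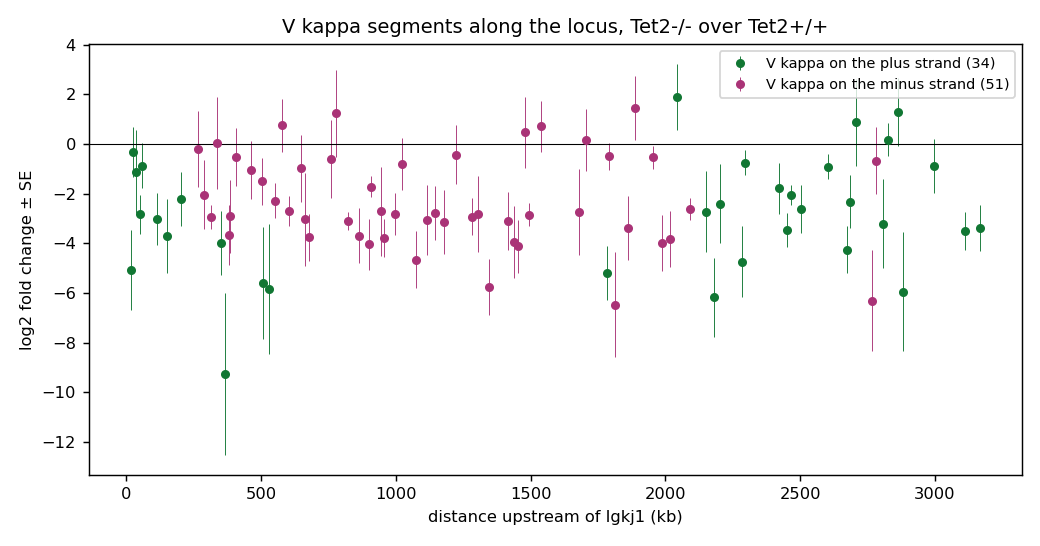
Log2 fold change with its standard error (edgeR, Tet2-/- over Tet2+/+) of the 85 V kappa segments against their distance upstream of Igkj1 in kb, coloured by strand. Segments below 0 lie along the whole locus, with medians of -2.49, -2.89 and -2.62 from the nearest to the farthest group.

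Summed to families of related sequence, 17 of 18 V kappa families were lower in the mean and 13 did not overlap, where 49.9% and 7.94% of all single genes tested did so. Family 5 had 35.4, 30.9 and 29.2 CPM with TET2 and 4.14, 1.48 and 4.29 CPM without it, and family 10 had 30.3, 20.5 and 22.0 CPM against 2.18, 3.09 and 3.69 CPM. Family 3 had 47.9, 46.5 and 41.1 CPM against 12.6, 19.4 and 5.32 CPM. Family 17 was the exception, at 5.20, 5.57 and 6.54 CPM against 20.2, 0.19 and 2.44 CPM, through Igkv17-127 in mouse 5.

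All 3 V lambda segments had a log2 fold change below 0, and Iglv2 overlapped between genotypes. Iglv1, which joins mainly to the J and C segments 1 and 3, had 18.4, 11.8 and 22.4 CPM with TET2 and 3.16, 4.89 and 5.10 CPM without it, without overlap (log2 fold change -2.002, SE 0.34, edgeR adjusted p = 0.167). Iglv2, which joins mainly to the J and C segments 2, had 5.68, 6.75 and 1.55 CPM with TET2 and 1.36, 6.11 and 1.03 CPM without it (log2 fold change -0.73, SE 0.82, edgeR adjusted p = 0.858, log2 fold change -1.95 without mouse 7 and -0.32 without mouse 8). Mouse 7 stood out in Iglv2 and in Iglc2 alike, and mouse 24 was the lowest with TET2 in both. Iglv3 had 2.03, 3.27 and 4.01 CPM against 0.38, 1.35 and 0.11 CPM (log2 fold change -2.36, edgeR adjusted p = 0.578, log2 fold change -3.56 without mouse 7). Iglv3 was highest with TET2 in mouse 24, where Iglv2 and Iglc2 were lowest. Iglv1 and Iglv2 are 97.0% identical over 364 bases, so part of their reads was divided by estimation.

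The minimum of 10 reads cut through segments of a few reads each. Just inside it, Igkv7-33 had 10.0 reads, Igkv10-95 15.3 and Igkv4-69 17.8. Just outside it, Igkv4-62 had 8.80 reads and Igkj3, Igkv14-130 and Igkv1-132 8 each, and all 8 of Igkv1-132 lay in mouse 5.

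The heavy chain constant regions are the partners of the light chains, and 5 of them were lower in every mouse without TET2. Of 8 genes 0 passed an adjusted p of 0.05 in edgeR and 4 (Ighm, Ighg1, Ighg2b and Ighg3) in DESeq2, all lower, beside 1.47% of genes called lower by DESeq2. In edgeR 6 were lower at an unadjusted p under 0.05 and 5 did not overlap, beside 5.12% and 7.94% of all genes tested, and the median log2 fold change in edgeR was -2.13 (-2.97 without mouse 5). Ighm had 640, 852 and 760 CPM with TET2 and 256, 307 and 261 CPM without it (log2 fold change -1.45, edgeR adjusted p = 0.108), and Igha had 244, 407 and 384 CPM against 184, 32.5 and 56.0 CPM (log2 fold change -1.92, edgeR adjusted p = 0.539). Ighg3 and Ighd overlapped between genotypes, with 36.8, 1.34 and 18.2 CPM against 0.76, 0.51 and 2.12 CPM for Ighg3 and 3.59, 2.57 and 0.63 CPM against 3.26, 1.09 and 0.81 CPM for Ighd. Ighe was highest in mouse 5 at 0.89 CPM and at most 0.11 CPM elsewhere (log2 fold change 2.86, edgeR adjusted p = 0.741). Summed light chain constant CPM was 0.410, 0.441 and 0.421 times the heavy chain constant CPM with TET2, and 0.380, 0.314 and 0.237 times without it. The groups did not overlap in this ratio.

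Genes of plasma cells differed in how far they went with the light chains, and the part of plasma cells and B cells in the result was not tested. Jchain, which links secreted IgM and IgA, had 98.5, 165 and 135 CPM with TET2 and 44.1, 27.6 and 26.6 CPM without it (log2 fold change -2.02, edgeR adjusted p = 0.116). Igkc was 3.87, 3.82 and 4.002 times Jchain with TET2 and 4.08, 3.50 and 2.80 times without it, an overlapping range. Igkc per Mzb1, a chaperone of IgM assembly, also overlapped but ran from 10.99 to 214 over the 6 mice. Of 11 plasma cell genes 0 passed an adjusted p of 0.05 in edgeR and 2 (Jchain and Mzb1) in DESeq2 on the same counts, beside 1.47% of genes called lower by it, and 3 (Jchain, Mzb1 and Derl3) were lower at an unadjusted p under 0.05 in edgeR, beside 5.12% of all genes tested, with a median of -0.78. Mzb1 overlapped between genotypes, at 34.7, 16.1 and 2.54 CPM against 4.18, 1.16 and 2.71 CPM. Derl3 had 3.71, 2.62 and 2.18 CPM against 1.52, 0.58 and 0.92 CPM, without overlap. Of the 11 genes 9 had a log2 fold change below 0 and 4 were lower without overlap, beside 49.9% and 7.94% of all genes tested. Irf4 and Eaf2 were also lower without overlap, with log2 fold changes of -0.88 and -0.78. Sdc1, Prdm1, Tnfrsf13b and Creld2 overlapped, with log2 fold changes of -1.395, -0.31, -0.04 and 0.67. Xbp1, which drives secretion in plasma cells and is also made in myeloid cells, had 134, 175 and 160 CPM against 298, 168 and 219 CPM. Their summed level was 380 to 502 CPM with TET2 and 277 to 487 CPM without it, and none was at 0 in all libraries.

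Of 10 B cell genes none passed an adjusted p of 0.05 or an unadjusted p of 0.05 in edgeR. DESeq2 called 0 on the same counts and 1 (Pax5) on length-scaled counts, beside 1.44% of genes called lower. A log2 fold change below 0 was found in 9, beside 49.9% of all genes tested, and the median was -0.66. This median was -1.51 without mouse 5 and -0.31 without mouse 23 or mouse 8. Their sum was 33.1 to 94.9 CPM with TET2 and 27.4 to 74.8 CPM without it, and none was at 0 in all libraries. Cd79b had 25.4, 47.7 and 14.7 CPM against 32.9, 14.2 and 46.7 CPM. Cd79a, its partner as a signalling chain of the B cell receptor, had 9.69, 12.2 and 3.80 CPM against 10.5, 2.96 and 2.17 CPM. Mouse 5 had Cd79a between mice 19 and 23 and less Igkc than either, and mouse 24 had little Cd79a and much Igkc. Igkc was 39.4, 52.1 and 142 times Cd79a with TET2 and 17.1, 32.7 and 34.3 times without it, and 15.0, 13.3 and 36.98 times Cd79b with TET2 and 5.46, 6.83 and 1.60 times without it. Neither ratio overlapped between genotypes.

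**Figure D5:**
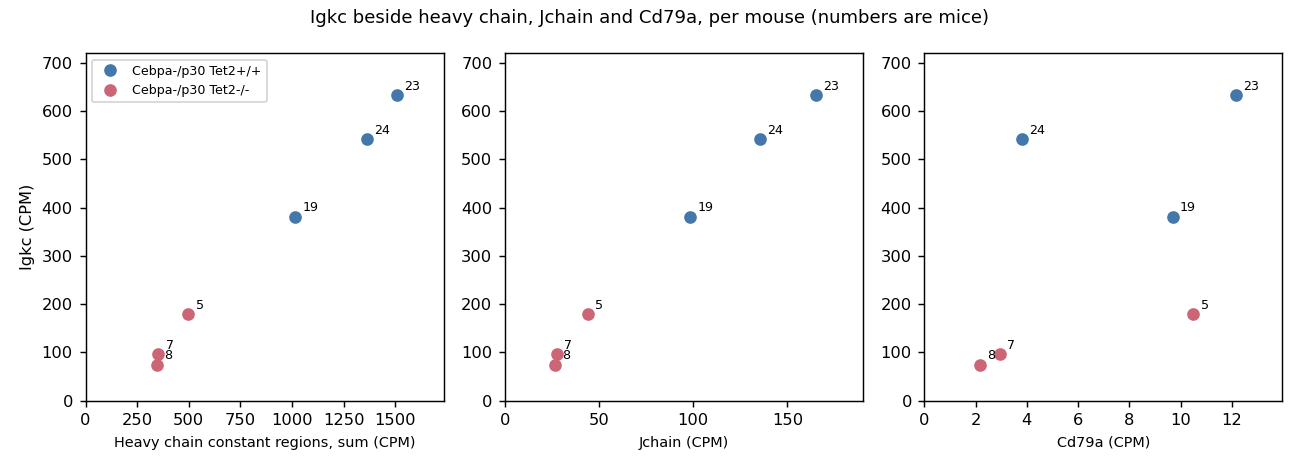
Igkc (CPM, vertical axes) against the summed heavy chain constant regions, Jchain and Cd79a (CPM, horizontal axes) in the 6 mice, numbered and coloured by genotype. Igkc lies at 2.80 to 4.08 times Jchain in all 6 mice, while mouse 5 lies below mice 19 and 23 in Igkc and between them in Cd79a.

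The machinery that rearranges and transcribes the light chain loci was low or did not pass an adjusted p of 0.05 in edgeR. Of the 4 genes of the surrogate light chain, which stands in for the light chain in pre-B cells, Vpreb2 was at 0 in every library, and the sum of the 4 was 0.428 to 0.563 CPM with TET2 and 0.193 to 1.20 CPM without it. Igll1 and Vpreb1 led it, with at most 0.60 and 0.47 CPM, both in mouse 5. Of 12 recombination genes 11 could be tested, 0 passed in edgeR, and DESeq2 called 1 (Rag2) on the same counts, beside 1.47% of genes called lower, and 0 on length-scaled counts. The 2 with an unadjusted p under 0.05 in edgeR, beside 5.12% of all genes tested as lower, were Rag2 (1.26, 2.30 and 0.70 CPM against 0.19, 0.32 and 0.16 CPM) and Dntt (0.06, 0.43 and 1.34 CPM against 0.06, 0 and 0 CPM). Rag1 had 2 reads or fewer in every library. Hmgb2 and Hmgb1, which assist the recombinase and are made in most cells, led the list with 407 to 723 and 379 to 434 CPM with TET2 and with 654 to 946 and 363 to 433 CPM without it.

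Of 17 factors that bind light chain enhancers and promoters none passed an adjusted or an unadjusted p of 0.05 in edgeR. DESeq2 called 0 on the same counts and 1 (Pax5) on length-scaled counts, beside 1.44% of genes called lower. The log2 fold change was below 0 in 11, beside 49.9% of all genes tested, with a median of -0.19 (-0.42 without mouse 24 and -0.09 without mouse 7). Irf4, Ikzf3 and Pou2f1 were lower without overlap (log2 fold changes -0.88, -0.80 and -0.355), beside 7.94% of all genes tested. Rela was higher without overlap (log2 fold change 0.32), beside 6.41%. Ikzf1 had 403, 317 and 362 CPM against 391, 502 and 352 CPM, Spi1 had 312, 291 and 334 CPM against 309, 512 and 338 CPM, and both are also factors of myeloid cells. Of 7 genes that fold antibody chains in the endoplasmic reticulum 0 passed in edgeR and in DESeq2, and 1 (Dnajb11) was higher at an unadjusted p under 0.05 in edgeR, beside 3.0% of all genes tested. Hspa5, the chaperone that holds unpaired heavy chains, had 847, 844 and 602 CPM against 753, 1061 and 1035 CPM. Calr, a chaperone of glycoproteins, had 1049, 1324 and 1060 CPM against 901.5, 576 and 868 CPM.

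Markers of other cells that the gate could leave were summed in the same way. The 9 genes of T and NK cells summed to 38.6 to 43.5 CPM with TET2 and 13.4 to 40.6 CPM without it, and the 5 erythroid genes to 2.46 to 54.2 CPM and 4.504 to 5.852 CPM, the highest in mouse 19 through Hbb-bs (48.3 CPM), with Hba-a1 at 0 to 3.11 CPM over the 6 mice. Klrb1c and Cd4 led the T and NK cell genes, at 1.90 to 13.7 and 1.41 to 9.53 CPM over the 6 mice. The 8 genes of plasmacytoid dendritic cells summed to 77.0 to 197.7 CPM and 58.6 to 205 CPM, mostly from Irf8, which myeloid cells also make, followed by Bst2 at 10.2 to 30.2 CPM over the 6 mice. Of these 3 lists 0 genes passed an adjusted p of 0.05 in edgeR, and DESeq2 called Siglech and Ncr1 lower, beside 1.47% of genes. These were also the 2 with an unadjusted p under 0.05 in edgeR, beside 5.12% of all genes tested as lower. Of the genes of the sort, Ptprc, which encodes the protein that B220 is a form of, had 801, 878 and 888 CPM against 762, 1221 and 895 CPM, and Cd3e had 1.14 to 4.24 CPM over the 6 mice.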

How the data were processed

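RNA of sorted AML blasts (200 ng per library) was made into TruSeq RNA v2 libraries, which do not mark strand, and quantified by the authors with Salmon 0.12.0 (per the labels' processing notes) against mm10 with Ensembl 94 transcripts. The deposited files give per transcript estimated counts and TPM. Estimated counts were summed per gene with the GENCODE M21 annotation (GRCm38) and rounded for the tests, and 112 of 136288 transcripts without a gene there were left out. TPM deposited by the authors served only as an alternative, since Salmon's effective lengths make the TPM of joining segments very large.

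Genotypes were compared over mice (3 against 3) with edgeR 4.0.16 (quasi-likelihood test, TMM factors, genes with a summed normalized count of at least 10, Benjamini-Hochberg adjustment over 22170 genes), and with DESeq2 1.42.0 as an alternative. CPM use TMM factors. Each library is 1 mouse, and the mouse numbers are not shared between groups. Standard errors (SE) were worked out from the log2 fold change and the F statistic of edgeR's test, which shares information on variance across genes. They are not the plain spread between the 3 mice of a group. Read depth per library limits segments of few reads. Sums, shares, ratios and counts over segments are descriptions with no test. Near copies were found with BLAST 2.17.0+ (R 4.3.3, Python 3.11.15). Named were every constant and joining segment, the 10 most abundant V kappa, the V lambda segments, the 3 most negative and 3 most positive V segments at a mean of at least 1 CPM, the segments beside the minimum, and of each list the 2 most abundant genes. Others (Igkv5-39, Igkv3-5, families, Mzb1, Derl3, Irf4, Eaf2, Sdc1, Prdm1, Tnfrsf13b, Creld2, the other heavy chain genes, Pax5, Ikzf3, Pou2f1, Rela, Cd34, Rag2, Dntt, Rag1, Vpreb2, Dnajb11, Siglech, Ncr1, Cd79a beside Igkc) were chosen after their values were seen. The segments and lists were chosen with earlier results of these data known. Alternatives were other factors, filters, units and tools, and leaving out each mouse.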

Additional observations from a re-analysis of the deposited data

How the results depend on the processing

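No paired analysis was possible because the mouse numbers are not shared between the groups. With the same counts DESeq2 called 31 segments lower at an adjusted p of 0.05 where edgeR called 0, and on length-scaled counts 32, with 31 of them shared. Partner genes past the threshold were 5 (4 heavy chain genes and Rag2) and 5 (the same 4 and Pax5), plasma cell genes 2 and 1, and B cell genes 0 and 1. In these 2 DESeq2 runs 1.47% and 1.44% of all genes tested were called lower. Without a filter on low counts edgeR called 3 segments (Igkc, Igkv5-39 and Igkv6-15), 2 partner genes and 1 plasma cell gene. The cause of these differences was not tested. For the runs without a filter or without 1 mouse the share of all genes past the same rule was not worked out, so their counts stand without it. Scaled by library size only, the median of the recombination genes was -0.0504 and that of the enhancer and promoter factors -0.32. Leaving out 1 mouse at a time, the segments lower at an unadjusted p under 0.05 were 41 to 49, those higher 0 to 1 (1 without mouse 7), the median of the segments -2.70 to -2.24, the median of the heavy chain constant regions -2.97 (without mouse 5) to -1.68, that of the B cell genes -1.51 (without mouse 5) to -0.31, and that of the surrogate light chain 0.22 to 1.38. Without mouse 5, which they rest on, Igkv17-127 (-2.05 to 1.86), Igkv12-89 (-0.61 to 2.03) and Igkv8-28 (-0.98 to 1.41) turned negative. The log2 ratios of the kappa sum (-2.59 to -1.97) and of the lambda sum (-2.09 to -1.52) kept their sign in every alternative run, TPM without joining segments, added after seeing the data, included. Segments under about 10 reads per group are limited by depth.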

Other observations

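V segments annotated as pseudogenes, which were outside the comparison, were nearly silent. The 60 kappa and lambda V pseudogenes together had 5.3, 4.3 and 25.5 reads in mice 19, 23 and 24 and 17.7, 1.3 and 0 reads in mice 5, 7 and 8, and only Igkv4-77 reached 10 reads over the 6 libraries, with 22.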
